A study of Saccharomyces cerevisiae with 2 samples.

Results

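The glyoxylate cycle, the gluconeogenic enzymes and the genes for their degradation were followed in budding yeast, Saccharomyces cerevisiae, after a shift to high salt. The set was given as a list of 10 genes named by systematic name, and all 10 were found among the 6868 features of the arrays. They are ICL1 (YER065C), MLS1 (YNL117W), DAL7 (YIR031C), MDH2 (YOL126C), MDH3 (YDL078C), PCK1 (YKR097W), FBP1 (YLR377C), SFC1 (YJR095W), VID24 (YBR105C, also called GID4) and GID10 (YGR066C). None of the 10 was listed at 0 on either array.

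The cells were BY4742, a laboratory yeast that is haploid and of alpha mating type, and carried the genotype WT his3kan in both channels. They were grown in synthetic complete medium at 30C. The salt groups were taken 30 min and 60 min after NaCl was brought to 0.7 M, and each was hybridised on a 2-colour NimbleGen tiling array against cells of the same strain that had received no salt. There was 1 array per time, with the dyes the same way round on both, so no value below has a replicate error, no test was possible, and dye and salt cannot be told apart. The sample titles date the unstressed cells to time 0, so time in culture is also part of each ratio. It is not given whether the unstressed RNA of both arrays came from the same culture.

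Yeast needs the glyoxylate cycle and gluconeogenesis when it grows on acetate, ethanol or other carbon sources that enter metabolism as acetyl-CoA. The glyoxylate cycle bypasses the steps of the citrate cycle that release carbon dioxide, so that acetyl units can be turned into malate and oxaloacetate, and gluconeogenesis then turns these into sugar phosphates. In cells given glucose many of the genes for these enzymes are repressed. Several of the enzymes already made are then marked for destruction by the GID ubiquitin ligase, whose receptor Gid4 recognises proteins that begin with proline. Fbp1, Icl1, Mdh2 and Pck1 are known substrates of that ligase. The transcription factors Cat8 and Sip4, which act downstream of the kinase Snf1, switch on many of the genes of the pathway.

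The deposited value is the log2 ratio of the channels for each feature. Its direction is not stated and was taken as likely salt over unstressed cells, because all 12 genes listed as known to be salt-induced, with STL1 at 8.32 and ENA1 at 2.23 among them, had positive values at 30 min. The 12 genes were chosen with earlier results of these data known, so their signs are not independent support for that direction. The sample titles name the unstressed cells before the salt-treated cells and do not say which was the denominator. "Higher" below follows this likely direction and would become "lower" if the ratio ran the other way. The log base is not stated either, and base 2 was assumed. Both arrays had a median of 0, so a value is relative to the typical feature, and the spread (SD) over features was 1.33 at 30 min and 0.71 at 60 min. A ratio says nothing of how abundant a transcript is. Values are called at least 2-fold when the log2 ratio was at least 1 or at most -1. Of 7 a-cell genes, which a culture of alpha cells does not use, ASG7 alone passed 2-fold at 30 min, with 1.20, and none passed at 60 min. The list ran from -0.17 to 1.20 at 30 min and from -0.30 to 0.92 at 60 min, so a feature with no use in these cells could reach such values. The 30 min values of ICL1, DAL7, MDH3, PCK1 and SFC1 and the 60 min values of ICL1, DAL7, MDH2 and MDH3 lie within those ranges. Whether any of the signals was near background was not tested.

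All 10 genes had positive log2 ratios at both times. At 30 min 7 of the 10 were at least 2-fold higher and none was 2-fold lower, against 15.8% of all features higher and 17.3% lower. Their median log2 ratio was 1.33 (interquartile range over the genes 0.97 to 1.97), where the median of all features was 0. At 60 min 3 of the 10 were at least 2-fold higher and none was lower, against 6.67% and 4.32% of all features, and the median was 0.95 (0.27 to 1.03). Values above 0 at both times were found for 38.6% of all features. The genes were not alike in size: at 30 min they ran from 0.16 for MDH3 to 4.87 for GID10.

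**Figure D1:**
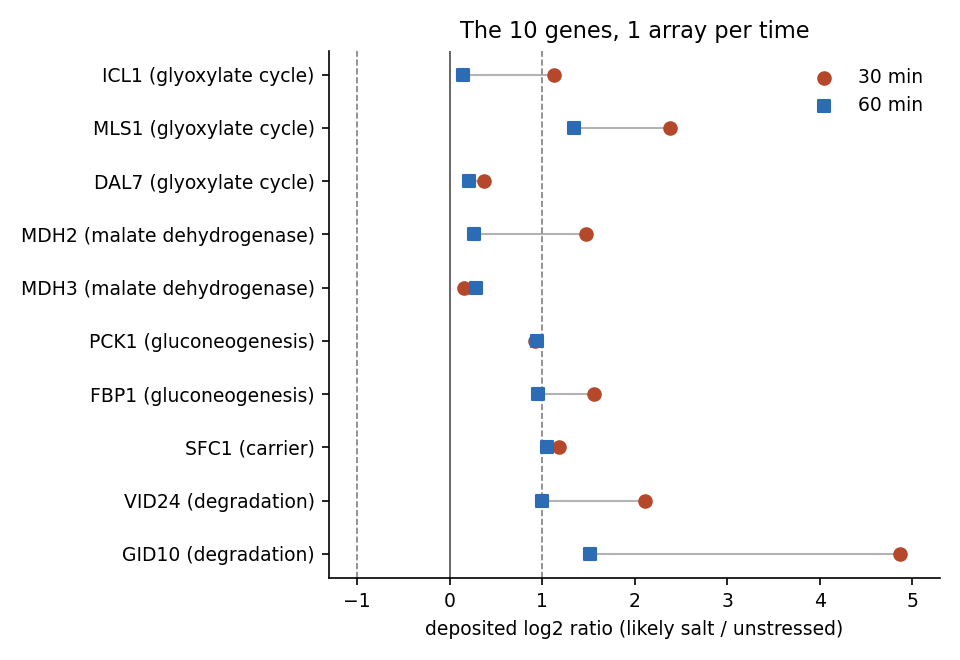
Deposited log2 ratio (x axis) of each of the 10 genes at 30 min (circles) and 60 min (squares), with the pathway role in brackets; each point is 1 array, a grey line joins the points of a gene, the solid line marks 0 and the dashed lines mark 2-fold. GID10 has the highest value at both times, 4.87 and 1.52, and MDH3, DAL7, PCK1 and SFC1 have nearly the same value at both times.

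The enzymes that belong to the glyoxylate cycle alone are isocitrate lyase and malate synthase. ICL1, which encodes isocitrate lyase, had a log2 ratio of 1.13 at 30 min (2.18-fold) and 0.15 at 60 min (1.11-fold). MLS1, which encodes the malate synthase that joins glyoxylate to acetyl-CoA, had 2.38 at 30 min (5.19-fold) and 1.35 at 60 min (2.55-fold). MLS1 thus stayed at least 2-fold higher while the value of ICL1 was close to 0 on the second array. In the order of all features, 3.55% lay above MLS1 at 30 min and 3.48% at 60 min, so its place hardly moved. For ICL1 the shares were 13.4% and 36.4%. The enzymes act on consecutive steps, yet their log2 ratios differed by more than 1 on each array.

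DAL7 encodes a second malate synthase, known from the breakdown of allantoin, a nitrogen source whose degradation also yields glyoxylate. Its log2 ratio was 0.37 at 30 min and 0.21 at 60 min, both well under 2-fold. MLS1 was 4.01-fold above it at 30 min and 2.21-fold at 60 min. The genes are close paralogs, and probes shared between them could carry signal from one to the other, which was not tested. DAL7 lies in a cluster of allantoin genes. Of 17 genes of allantoin use and its GATA-factor control, 4 passed 2-fold upwards at 30 min and none downwards (median 0.04), and 1 was higher at 60 min (median 0.02). The shares higher were 23.5% and 5.88%, near the 15.8% and 6.67% of all features. The 4 were DAL80, a repressor of the group, with 1.86, DAL3 with 1.31, DAL1 (allantoinase) with 1.27 and the allantoin permease gene DAL4 with 1.04. The urea transporter gene DUR3 lay just below the threshold with 0.996. DAL80 was the 1 gene past 2-fold at 60 min, with 1.41. DAL2, which encodes allantoicase, had 0.17 and 0.06, so the cluster around DAL7 held both shifted and unshifted genes at 30 min.

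ICL2, the mitochondrial relative of ICL1 that splits methylisocitrate, had -0.46 at 30 min and 0.00 at 60 min. ICL1 was above it by 1.59 at 30 min and by 0.15 at 60 min.

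Malate dehydrogenase turns the malate of the cycle into oxaloacetate and exists in yeast as cytosolic Mdh2, peroxisomal Mdh3 and mitochondrial Mdh1. MDH2 had a log2 ratio of 1.47 at 30 min (2.77-fold) and 0.26 at 60 min (1.20-fold). MDH3 had 0.16 and 0.28. The cytosolic isoenzyme gene was thus 1.32 above the peroxisomal one at 30 min, and the values nearly coincided at 60 min, with a difference of -0.01. MDH1, which serves the citrate cycle and is not one of the 10 genes, had 1.39 and 0.49. At 30 min it was close to MDH2 and 1.23 above MDH3, so the peroxisomal form was the one apart.

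Of the 10 genes MDH3 had the lowest value at 30 min, and its place is unremarkable among all features. Its nearest genes over both arrays by Euclidean distance were PDA1 at 0.0052, AIM6 at 0.00735 and CAL4 at 0.016, and 432 features with a gene symbol lay within a distance of 0.25.

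PCK1 and FBP1 encode the enzymes that are specific to gluconeogenesis. PCK1, phosphoenolpyruvate carboxykinase, had a log2 ratio of 0.92 at 30 min (1.89-fold) and 0.95 at 60 min (1.93-fold), just under 2-fold on both arrays. FBP1, fructose-1,6-bisphosphatase, had 1.56 at 30 min (2.95-fold) and 0.96 at 60 min (1.94-fold). The values of this pair were 0.64 apart at 30 min and 0.01 apart at 60 min. Among all features the place of PCK1 went up, from 17.5% of features above it at 30 min to 7.34% at 60 min, while that of FBP1 was 8.39% and then 7.18%.

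SFC1 encodes the carrier that takes succinate, the other product of isocitrate lyase, into mitochondria in exchange for fumarate. It had 1.18 at 30 min (2.27-fold) and 1.05 at 60 min (2.06-fold). SFC1, MLS1 and GID10 were the 3 of the 10 genes at least 2-fold higher on both arrays, which 5.17% of all features were. The share of features above SFC1 was 12.5% at 30 min and 6.17% at 60 min.

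The enzymes of the reverse, glycolytic steps had values in both directions. CDC19, the main pyruvate kinase gene, which opposes PCK1, had -1.05 at 30 min and -0.80 at 60 min, so PCK1 was above it by 1.97 and 1.75. PFK1, a phosphofructokinase subunit gene that opposes FBP1, had -0.47 and 0.02. The other subunit gene, PFK2, had -0.11 and 0.43. The minor pyruvate kinase gene PYK2 had 1.66 and 0.36. PFK26, which makes the regulator fructose-2,6-bisphosphate, had 2.27 and 1.27, and FBP26, which removes it, had 2.01 and 0.66. PFK27, listed beside PFK26, had 0.16 and 0.69. At 30 min 3 of the 7 genes listed for these steps and the regulator passed 2-fold upwards and 1 downwards (median 0.16). Of the 3, PYK2 alone encodes an enzyme of a glycolytic step, and PFK26 and FBP26 act on the regulator. At 60 min 1 gene, PFK26, was higher (median 0.43). The shares higher were 42.9% and 14.3%, against 15.8% and 6.67% of all features, over a list of only 7 genes.

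GID10 and VID24 had the first and the third highest ratio of the 10 genes at 30 min. VID24, the receptor Gid4 of the ligase, had a log2 ratio of 2.11 at 30 min (4.31-fold) and 0.997 at 60 min, just below the threshold. GID10, which encodes a related receptor, had 4.87 at 30 min (29.2-fold) and 1.52 at 60 min (2.87-fold). GID10 was above VID24 by 2.76 at 30 min, which is 6.77-fold, and by 0.52 at 60 min. It ranked 33rd of the 6868 features at 30 min and 200th at 60 min.

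The decline of GID10 between the arrays was among the largest of all features. Its 60 min value minus its 30 min value was -3.35 on the log2 scale, the 4th lowest difference of the 6868. The genes nearest to it over both arrays were MPC3, a subunit of the mitochondrial pyruvate carrier, with 4.45 and 1.68, the phosphoglucomutase gene PGM2 with 4.29 and 1.56, and the Hsp70 gene SSA4 with 4.30 and 1.70. These lay at Euclidean distances of 0.444, 0.574 and 0.598, and no feature with a gene symbol lay within 0.25.

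The rest of the GID ligase had the same sign at 30 min, with GID12 as the exception. Of the 9 other genes of the complex 8 were at least 2-fold higher at 30 min and none was lower (median 1.60, interquartile range 1.32 to 1.84), against 15.8% of all features higher. With VID24 and GID10 the count was 10 of 11. GID11, which encodes a further substrate receptor, had 3.42. The receptor genes GID10, GID11 and VID24 had the 3 highest values of the complex, but VID24, with 2.11, hardly differed from FYV10. FYV10 and RMD5, which encode the RING subunits that carry the catalytic activity, had 2.09 and 1.52. VID30 had 1.84 and GID8 had 1.32, both of the scaffold, and VID28, which holds the receptor, had 1.77. UBC8, the ubiquitin-conjugating enzyme, had 1.60, and GID7, which joins the complex into larger assemblies, had 1.07. GID12 had -0.09.

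At 60 min the ligase genes were mostly within 2-fold. Of the 9 other genes GID11 alone was at least 2-fold higher, with 1.32, and the median was 0.56. That is a share of 11.1%, against 6.67% of all features. VID28 had 0.79, FYV10 0.76, RMD5 0.59, VID30 0.56, GID8 0.35 and UBC8 0.26. GID7 and GID12 were near 0, with -0.06 and 0.05. The 4 substrate genes ICL1, MDH2, PCK1 and FBP1 had a median of 1.30 at 30 min and 0.61 at 60 min, beside 1.77 and 0.59 for the 11 ligase genes. Transcript ratios do not show how much of the enzymes was present or degraded.

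**Figure D2:**
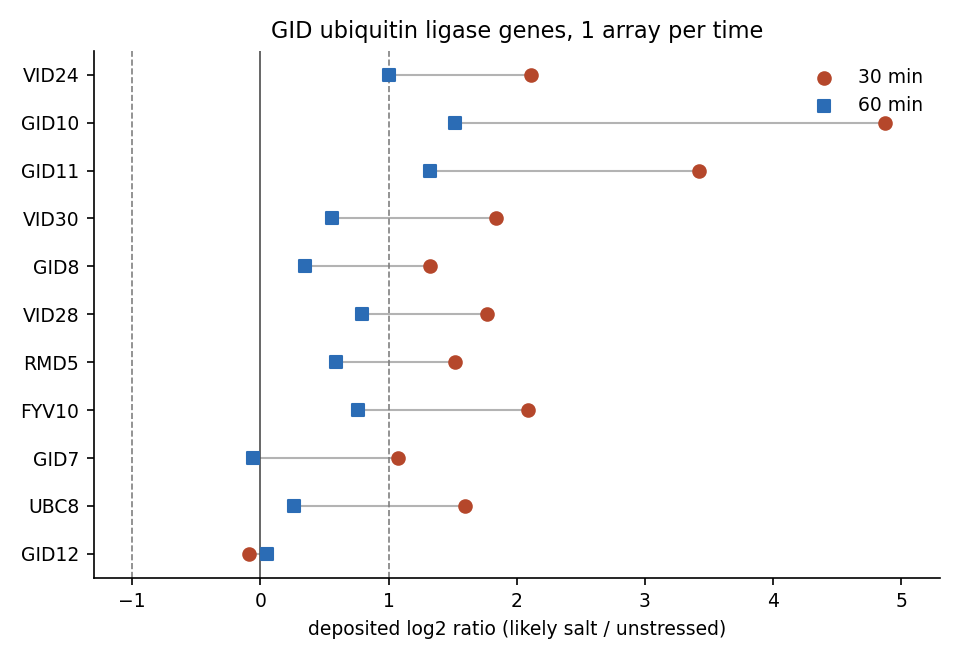
Deposited log2 ratio (x axis) of 11 GID ubiquitin ligase genes at 30 min (circles) and 60 min (squares), 1 array per time, with receptors at the top; the solid line marks 0 and the dashed lines mark 2-fold. At 30 min 10 of 11 genes lie at or beyond 2-fold, and at 60 min GID10 and GID11 do, with 1.52 and 1.32. Of all features 15.8% were at least 2-fold higher at 30 min and 6.67% at 60 min.

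Between the times the values of 8 of the 10 genes were lower at 60 min, and those of MDH3 and PCK1 were higher by 0.12 and 0.03. Among all features 49.5% were lower at 60 min. The median of the 60 min value minus the 30 min value was -0.79 (interquartile range -1.09 to -0.15) against 0 over all features. A drop of at least 2-fold was seen for 4 genes, GID10 (-3.35), MDH2 (-1.21), VID24 (-1.11) and MLS1 (-1.03), against 8.85% of all features. No gene of the 10 had a gain of that size, against 11.6% of all features. ICL1, with -0.98, was just short of the threshold, followed by FBP1 with -0.61, DAL7 with -0.17 and SFC1 with -0.14. Among all 1087 features at least 2-fold higher at 30 min the median difference was -1.01 and 51% had a drop of that size.

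The spread of all values was 1.88 times larger on the first array, and a difference between the times depends on whether that is kept. With the 60 min array rescaled to the SD of the 30 min array, 6 of the 10 genes were higher at 60 min and 4 were lower (48.4% of all features were lower), and the median difference was 0.09. On that scale PCK1 was higher by 0.86 and SFC1 by 0.78, and MDH3, FBP1, MLS1 and DAL7 by 0.36, 0.24, 0.16 and 0.02. The genes that were lower on both scales were GID10, MDH2, ICL1 and VID24, with rescaled differences of -2.01, -0.97, -0.84 and -0.23. These 4 also had more features above them at 60 min than at 30 min. The shares were 0.466% and then 2.90% for GID10, 9.11% and 27.9% for MDH2, and 4.56% and 6.68% for VID24.

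**Figure D3:**
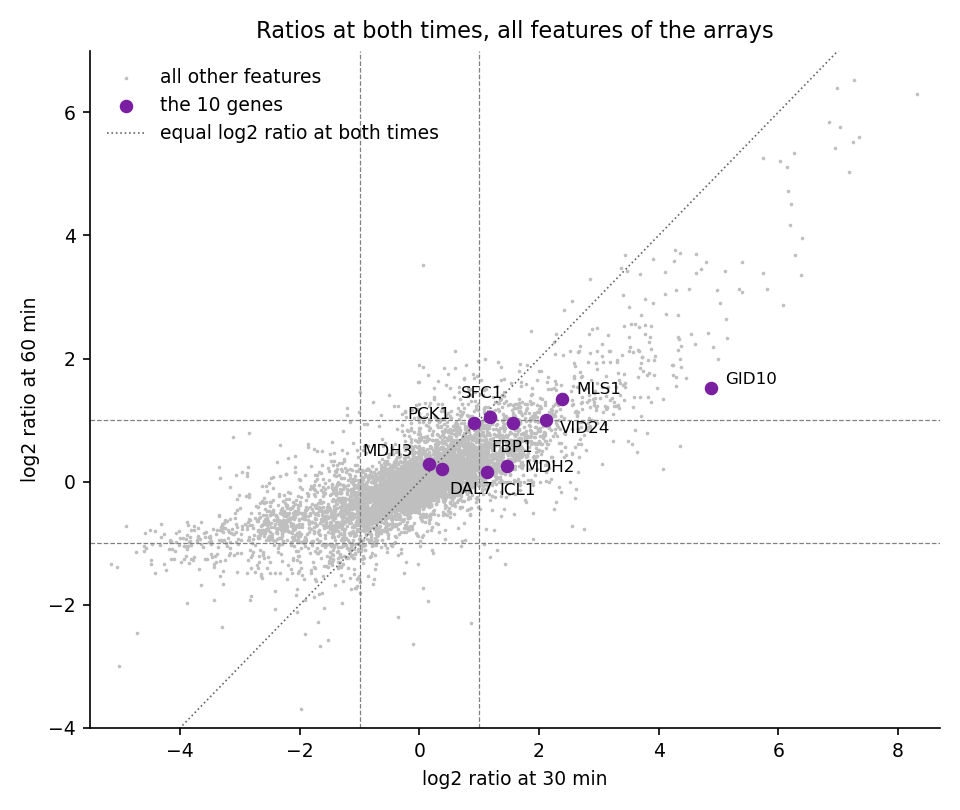
Log2 ratio at 60 min (y axis) against that at 30 min (x axis) for the 10 genes (large points, named) and all other features (grey), 1 array per time; dashed lines mark 2-fold and the dotted line marks equal ratios at both times. PCK1 and MDH3 lie on or just above the dotted line, and GID10, with 4.87 and 1.52, lies far below it.

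The genes that feed acetyl units and other substrates into the pathway were divided. At 30 min 8 of 18 such genes passed 2-fold upwards and 2 downwards (median 0.63), and 6 were higher and 2 lower at 60 min (median 0.19). The shares higher were 44.4% and 33.3%, against 15.8% and 6.67% of all features. The share lower was 11.1% at each time, against 17.3% and 4.32%. The uptake genes JEN1, a permease for lactate and pyruvate, and ADY2, an acetate transporter, had 3.29 and 3.14 at 30 min and 1.23 and 1.21 at 60 min. CAT2 and CRC1, for the carnitine shuttle that brings acetyl units to mitochondria, had 2.91 and 2.57 at 30 min and 1.29 and 1.55 at 60 min. The other carnitine acetyltransferase genes, YAT1 and YAT2, had 0.03 and 0.43 at 30 min, so the shuttle genes did not share 1 value. AGX1, whose enzyme turns glyoxylate into glycine, had 2.72 and 1.38. This was above both ICL1 and MLS1 on each array.

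Other enzymes of the same metabolites had values on both sides of 0. ACS1, the acetyl-CoA synthetase of cells without glucose, had 1.68 and 1.22, while the second gene, ACS2, had -0.58 and -0.43. IDP2, a cytosolic isocitrate dehydrogenase, had 1.52 and 0.60. CIT2, the peroxisomal citrate synthase that starts the glyoxylate cycle, was lower, with -1.02 and -1.57, opposite in sign to MLS1 and ICL1. ACO1, the aconitase gene, had 0.23 and 0.38. The pyruvate carboxylase genes PYC1 and PYC2, whose enzyme makes oxaloacetate for PCK1 from pyruvate, had 0.83 and -0.84 at 30 min and -0.01 and -0.56 at 60 min. ADH2, the alcohol dehydrogenase that consumes ethanol and is also repressed by glucose, had -0.15 and -0.09. ADH2 thus lay near 0 on both arrays, where ACS1 was at least 2-fold higher. Whether the probes of ADH2 also read related genes was not tested.

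At 30 min 4 of 20 genes that control the pathway passed 2-fold upwards and 1 downwards (median 0.40), and 2 were higher and 2 lower at 60 min (median 0.05). The shares higher, 20% and 10%, were near the 15.8% and 6.67% of all features. The shares lower were 5% and 10%, against 17.3% and 4.32%. SIP4 had 3.66 at 30 min and 2.14 at 60 min, and CAT8 had 2.57 and 1.26. Both were thus at least 2-fold higher on both arrays. TOS3, a kinase that activates Snf1, had 1.67 and 0.46, and SIP2, a subunit of the Snf1 complex, had 1.24 and 0.36. The other activating kinase genes had 0.06 and 0.01 (SAK1) and -0.89 and -0.03 (ELM1). The other subunit genes GAL83, SIP1 and SNF4 had 0.56, 0.51 and 0.36 at 30 min, all under 2-fold. SNF1 itself had 0.50 and 0.10, and ADR1, an activator of ADH2, had 0.54 and -0.30. On the repressing side MIG2 had -1.004 and -0.69, MIG3 had -0.36 and -1.20, MIG1 had -0.19 and -0.38, and HXK2, a hexokinase that also takes part in glucose repression, had -0.94 and -1.32. These 4 were below 0 on both arrays. Among all features 49.5% were above 0 at 30 min and 49.4% at 60 min, each array taken alone. The share of all features below 0 on both arrays was not computed. REG1 and GLC7, for the phosphatase that keeps Snf1 inactive in glucose, were above 0, with 0.60 and 0.19 at 30 min and 0.25 and 0.03 at 60 min. RDS2 and ERT1, further zinc cluster regulators of gluconeogenesis, were within 2-fold, with -0.02 and -0.38 at 30 min.

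**Figure D4:**
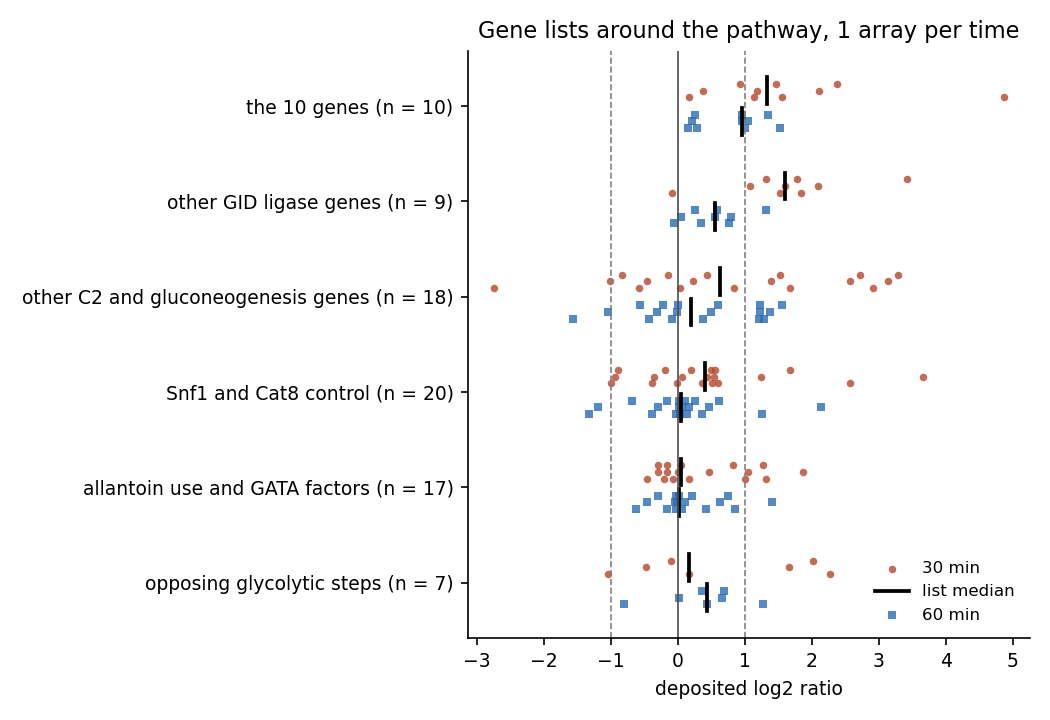
Deposited log2 ratio (x axis) of every gene in 6 lists at 30 min (circles) and 60 min (squares), 1 array per time; black bars are list medians, the solid line marks 0 and the dashed lines mark 2-fold. The 10 genes and the other GID ligase genes have medians of 1.33 and 1.60 at 30 min, and the lists of allantoin use and of opposing glycolytic steps have medians of 0.04 and 0.16.

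The genes are spread over 10 chromosomes (V, XIV, IX, XV, IV, XI, XII, X, II and VII in the order given at the start). Their neighbours had values in both directions at 30 min. In the order of the R64 reference annotation, 18 neighbouring genes have a feature on the arrays. At 30 min 4 of them were 2-fold or more above 0 and 5 as far below it (median 0.19), and 1 was higher at 60 min (median 0.14). Among all features 15.8% were higher and 17.3% lower at 30 min, and 6.67% were higher at 60 min. VID24, with 2.11 at 30 min, stands between YMC2 with -3.85 and SND3 with -1.66. MDH2, with 1.47, stands between the ribosomal protein gene RPL25 with -1.92 and TRM13 with -2.02. GID10 stands between VHT1 with -0.44 and YGR067C with 0.59. SFC1 has RPL43B on its one side, with -2.32, and YJR096W on the other, with 3.70 at 30 min and 2.71 at 60 min. For PCK1 the neighbours ESL2 and UBP11 were also above 0, with 0.91 and 1.93, near or above its own 0.92. These neighbours were looked up after the values of the 10 genes were known.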

How the data were processed

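The authors deposited 1 log2 ratio per feature and array; the sources used here do not give the array processing (background, normalization, probe summary) or the build. Base 2 was assumed, the values appear centred (median 0 on both arrays), and the direction is only likely. Scanner intensities were not used here. The 2 arrays were mapped to their times by sample, and 5984 of 6868 features matched a locus tag of the R64 gene table, 5267 with a gene symbol. Counts, medians, differences and ranks were computed with Python 3.11.15, numpy 2.4.6 and pandas 2.3.3, and the counting was tested on simulated data. With 1 array per time there was no test. The number of arrays limits the precision. The 10 genes and the 7 further lists (90 genes, all found) were chosen with earlier results of these data known. All 10 genes are reported, with list genes and the 3 features nearest to the highest and the lowest of the 10 at 30 min. Alternatives were another centring, rescaling of the 60 min array, natural logs, features at 0 left out, the set without DAL7, MDH3 and GID10, and thresholds of 1.5-fold and 3-fold. Promoter and protein sequences were not used here. A gene of the further lists is counted but not reported by name here.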

Additional observations from a re-analysis of the deposited data

How the results depend on the processing

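Of 36 recomputed values 26 kept their direction and moved by at most 1.5 times. Some of the 26 could not have moved. Leaving out features at 0 removed none of the 10 genes, and rescaling the 60 min array left the 30 min values as they were. With the 60 min array rescaled to the SD of the 30 min array, the median difference between the times reversed from -0.79 to 0.09. The 60 min median then became 1.79, 6 of the 10 genes were at least 2-fold higher at 60 min (15.7% of all features were), and 1 had a drop of at least 2-fold. Over all features 49.7% of those past 2-fold at 60 min were then higher (1078 higher, 1093 lower), against 458 higher and 297 lower as deposited. Read as natural logs, the 30 min median was 1.92 and 6 genes were at least 2-fold higher at 60 min, against 11.7% of all features. At 1.5-fold 6 genes passed upwards at 60 min, against 14.3%. At 3-fold 3 genes passed at 30 min and 0 at 60 min, and 1 had a drop of that size; 8.15% and 2.61% of all features were at least 3-fold higher at these times. Centring on features with a gene symbol brought VID24 past 2-fold at 60 min, for 4 genes in all. No paired analysis was possible because there is 1 array per time and the result comes from no test. Signal over background is unknown.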
